A study of Homo sapiens with 2 samples.

Results

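SLMAP, the gene of sarcolemma associated protein, was examined together with 8 genes whose proteins work with it, in RKO cells with and without knockdown of the splicing factor SRSF2. The members were chosen by name. They are SLMAP, its partners SIKE1 and FGFR1OP2, the striatins STRN, STRN3 and STRN4, the adaptor MOB4 and the MST kinases STK3 and STK4, which make 9 of the 54261 genes listed. SLMAP came onto the list because an exon of it had been picked as changed in these same libraries. The values below therefore describe the members and test nothing about why they were chosen.

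RKO is an established human colon carcinoma line. RNA was sequenced from cells that received a control siRNA (si-NC) and from cells that received an siRNA against SRSF2 (si-SRSF2), giving 2 libraries. Both used the same parental cells and medium, and the knockdown rested on 1 siRNA sequence. With 1 library per group no difference had a replicate check, so no p-value is given, and every interval covers counting error only. In bulk RNA, fewer cells of a kind and less RNA per cell cannot be told apart. The libraries held 19931360 counts in si-NC against 14512802 in si-SRSF2. A floor of 3 counts, a rough upper bound for a count of 0, came to 0.151 and 0.207 CPM, which are counts per 1000000 counts of the scaled library. SRSF2 itself had 1964 counts in si-NC against 713 in si-SRSF2, a log2 ratio of -0.997 with a 95% Clopper-Pearson interval of -1.13 to -0.88. Of 12 colon epithelium markers, 4 reached a mean of 1 CPM, namely KRT8, KRT18, EPCAM and CDX2, at 27.4, 31.7, 8.98 and 10.6 CPM in si-NC. KRT20, CDX1, LGR5 and MUC2 were at 0 in both libraries, and CDH1 had 10 and 6 counts. The 12 markers summed to 79.4 CPM in si-NC against 97.1 in si-SRSF2, where KRT8 stood at 42.6 CPM (log2 ratio 0.62, 0.47 to 0.80). Of 5 mesenchyme markers, VIM alone passed, at 28.0 and 26.4 CPM. None of the 5 striated muscle markers had more than 4 counts in a library and none of the 3 endothelial markers more than 2. PTPRC had 2 and 0 counts and CD3E none, while CD68, a lysosomal protein of macrophages and many other cells, had 763 and 982 CPM. Their part in the differences below was not tested.

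SLMAP is a tail-anchored membrane protein, first described in muscle, with a forkhead-associated domain that binds phosphorylated threonines. It is a subunit of STRIPAK, a complex in which striatins bring the phosphatase PP2A to kinases. The MST kinases STK3 (MST2) and STK4 (MST1) start the Hippo cascade, which holds back the growth-promoting co-activators YAP and TAZ. SLMAP binds autophosphorylated MST kinases and so brings them to PP2A, which removes the activating phosphates.

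The end of SLMAP is written in alternative ways, and the letters are shown because they separate the forms that the study compared. In GRCh38, SLMAP (ENSG00000163681.17) spans bases 57755450 to 57930003 of chromosome 3, plus strand. GENCODE release 44 lists 40 transcripts of it, of which 24 are coding. Exon 24 of the canonical transcript SLMAP-230, which has 25 exons, is 90 bp long and runs from 57925845 to 57925934. It is in 9 of the coding transcripts, and 11 other coding transcripts reach exon 25 without it, such as SLMAP-231 with 24 exons. The number of coding bases before exon 24 is a multiple of 3, so exon 24 starts on a codon boundary. With exon 24 the stop codon lies at 57925926-57925928, 6 bases before the end of the exon. Without it translation runs on into exon 25 for 93 bases, stop codon included, to 57927386-57927388. Exon 24 up to its stop codon (capitals), chr3:57925845-57925928 on the plus strand, reads as follows.
Exon 24: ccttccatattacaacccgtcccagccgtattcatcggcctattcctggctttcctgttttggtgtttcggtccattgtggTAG
The next 2 runs show the last 24 bases of exon 23 (lower case, chr3:57923000-57923023) joined to the first 24 of the exon that follows (capitals), exon 24 at chr3:57925845-57925868 or exon 25 at chr3:57927296-57927319.
Exons 23 and 24: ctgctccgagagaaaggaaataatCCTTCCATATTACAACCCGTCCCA
Exons 23 and 25: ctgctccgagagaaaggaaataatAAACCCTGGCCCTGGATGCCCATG
The target of the study's hairpin against the form without exon 24 spans the junction of exons 23 and 25, and of its 21 bases it has 12 from exon 23 (lower case) and 9 from exon 25 (capitals).
sh-SLMAP-S target: aaaggaaataatAAACCCTGG
This target was found in 12 of the 40 SLMAP transcripts, none with exon 24. The hairpin against the form with exon 24 matched with 19 of its 21 bases inside that exon, at chr3:57925850-57925868, in 15 transcripts, of which 14 hold the exon.
sh-SLMAP-L target: catattacaacccgtccca
These hairpins were not used in the 2 libraries. The gene counts used here add all SLMAP forms together, and exon or junction reads were not analysed here.

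The splice sites around exon 24 were scored against 120013 introns with GT and AG ends in the canonical transcripts of the genes tested, by the log2 frequency of each base at each position. They are printed with exon bases in capitals and intron bases in lower case.
Donor of exon 23: AATgtaagt
Acceptor of exon 24: atatgccttcccttctttagCCT
Donor of exon 24: AAGgtacaa
Acceptor of exon 25: cttggtttctttccacacagAAA
The donor of exon 24, at chr3:57925932-57925940, stood at the 10.6th percentile of all donors. The donor of exon 23, at chr3:57923021-57923029, stood at the 65.4th. The acceptors of exon 24, at chr3:57925825-57925847, and of exon 25, at chr3:57927276-57927298, stood at the 47.6th and 63.9th percentiles. The weakest of the 4 sites by this score was thus the donor of the alternative exon. SRSF2 is known to bind short elements rich in cytosine or guanine, written here as CCNG or GGNG, or in the mixed forms CGNG or GCNG, and counted on the transcribed strand with overlaps allowed. Exon 24 held 6 of them, against a median of 5 in 963 internal exons of 90 bp, of which 39.8% held at least 6. The first 90 bases of exon 25 held 10, a number reached by 13.8% of those exons. Exon 23 held 5 in 135 bp, against a median of 8 in 793 internal exons of that length. A match describes these letters and is not a binding site. Binding was assayed by the study itself, by crosslinking in another cell line. It reported that tagged SRSF2 bound exon 25, with low or negligible binding at exons 23 and 24.

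The siRNA is shown because its seed could pair with other transcripts. In the listed strand below, capitals mark the 7 bases that the seed of the guide strand would pair with.
si-SRSF2: uccaaauccagGUCGCGAutt
The site GTCGCGA was in the canonical 3' untranslated region of none of the 8 members with counts, and in 0.257% of 10885 genes. GATTTGG, the site of the other strand, was in 14.6% of them and in 2 members, STRN with 3 sites and SIKE1 with 1. The region is 11758 b long in STRN and 4792 b in SIKE1, against a median of 1362 b. Whether these sites bear on the levels below was not tested.

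The question at the gene level was whether the genes of the complex changed in amount between the libraries. Counts were scaled by edgeR's TMM method and written as CPM. The log2 ratio, si-SRSF2 over si-NC, was computed after adding 0.5 CPM, which slightly understates changes of low genes. It was set beside all 12620 genes that averaged 1 CPM or more. A gene was called higher or lower where the 95% Clopper-Pearson interval of its ratio left out equal levels, which compares these libraries and not the conditions. Of the 9 members, 8 passed the filter. SLMAP was called higher, 5 members were called lower and 2 were not called. Over all genes tested, 21.0% were called higher and 26.7% lower. Intervals narrow with more counts, and among the 4914 genes at or above the mean level of the lowest member that passed, these shares were 26.3% and 35.8%. None of the 8 was 2-fold changed, as were 0.848% (higher) and 0.499% (lower) of all genes tested. The median log2 ratio of the 8 was -0.19, against -0.02 over all genes tested, of which the middle 50% lay between -0.19 and 0.15. Every member with counts other than SLMAP had a log2 ratio below 0, as did over 50% of all genes tested, whose median was below 0. The intervals of STRN4 and FGFR1OP2 included 0, and STRN4 stood at the 49.99th percentile of all genes tested.

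**Figure D1:**
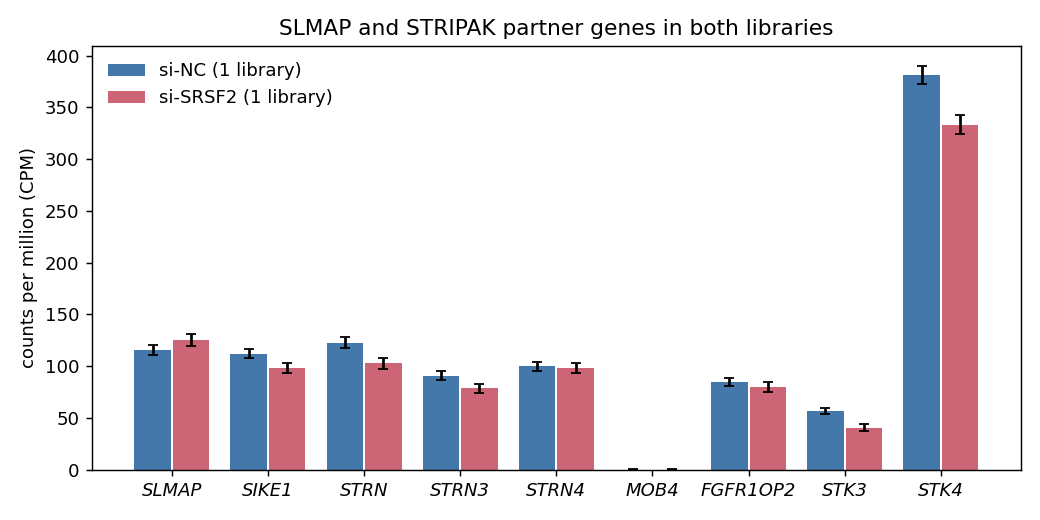
Levels in CPM (y axis) of the 9 members (x axis) in the si-NC library (blue) and the si-SRSF2 library (red), 1 library each, with exact 95% Poisson intervals as error bars. Bar heights of different genes are not corrected for length; SLMAP had the taller bar in si-SRSF2 and the other members with counts had it in si-NC, and MOB4 was at 0.

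SLMAP had 2303 counts in si-NC against 1821 in si-SRSF2, or 116 and 125 CPM. Its log2 ratio was 0.12 (0.03 to 0.21), a level 1.09-fold that of the control, at the 70.9th percentile of all genes tested. Many genes tested thus had a larger ratio. Its count relative to that of each partner went up, a comparison in which the scaling has no part. For each count of STK3, the MST2 kinase, there were 2.04 counts of SLMAP in si-NC against 3.09 in si-SRSF2, a ratio of 1.51 (95% exact conditional interval 1.34 to 1.70). Against STRN the same ratio was 1.30 (1.19 to 1.42), against STRN3 1.25 (1.14 to 1.38), against SIKE1 1.24 (1.13 to 1.36) and against STK4 1.24 (1.16 to 1.33). It was 1.15 against FGFR1OP2 (1.04 to 1.27) and 1.105 against STRN4 (1.01 to 1.21). All 7 intervals left out 1, the last by little. Against the 4913 other genes at or above the mean level of the lowest member, SLMAP was higher in this way for 53.3%, so such a separation was common and is not particular to these partners. These intervals were not adjusted for the number of comparisons and share the SLMAP counts.

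SIKE1 and FGFR1OP2 encode related coiled-coil proteins that bind SLMAP and link it to striatins. SIKE1 was named as a suppressor of the kinase IKBKE in antiviral signalling. SIKE1 (ENSG00000052723.12, chromosome 1, 114769479 to 114780685, minus strand) had 2235 counts in si-NC against 1423 in si-SRSF2, or 112 and 98.0 CPM. Its log2 ratio was -0.19 (95% interval -0.29 to -0.10), a level 87.4% of the control, and it was called lower. FGFR1OP2 (ENSG00000111790.14, chromosome 12, 26938470 to 26966650, plus strand) had 1684 and 1161 counts, or 84.5 and 80.0 CPM. Its log2 ratio of -0.08 had an interval of -0.19 to 0.03 and was not called. The ratio of SIKE1 to FGFR1OP2 did not separate either. SIKE1 made up 57.0% of the counts of this pair in si-NC (95% Clopper-Pearson interval 55.5% to 58.6%) and 55.1% in si-SRSF2 (53.1% to 57.0%), with an odds ratio of 0.92 (0.83 to 1.02).

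The striatins are the scaffolds of the complex and act as regulatory subunits of PP2A. STRN (ENSG00000115808.13, chromosome 2, 36837698 to 36966536, minus strand) had 2446 counts in si-NC against 1490 in si-SRSF2, or 122.7 and 102.7 CPM, a log2 ratio of -0.26 (-0.35 to -0.16). STRN3 (ENSG00000196792.12, chromosome 14, 30893799 to 31026401, minus strand) had 1806 and 1139 counts, or 90.6 and 78.5 CPM, a log2 ratio of -0.21 (-0.32 to -0.10). STRN4 (ENSG00000090372.15, chromosome 19, 46719511 to 46746994, minus strand) had 1988 and 1423 counts, or 99.7 and 98.0 CPM, a log2 ratio of -0.02 (-0.12 to 0.07). STRN and STRN3 were called lower and STRN4 was not called. The make-up of the family moved toward STRN4. Such a shift was common, as 63.2% of all pairs of genes at or above the mean level of the lowest member separated by a normal interval. It took 31.9% of striatin counts in si-NC (30.7% to 33.0%) and 35.1% in si-SRSF2 (33.6% to 36.6%), an odds ratio of 1.16 (1.06 to 1.26). Per kb of canonical transcript, STRN4 made up 50.9% and 54.3% of the family, STRN3 35.0% and 32.9% and STRN 14.0% and 12.7%. The order depends on the length used, since with the union of annotated exons STRN3 was the largest, at 45.8% and 44.2%, before STRN4 at 32.8% and 35.9% and STRN at 21.5% and 19.98%, while STRN4 again had the larger share in si-SRSF2. By counts, which grow with length, STRN had 39.2% and 36.8%, and its transcript, at 14174 bp, is over 3 times as long as those of STRN3 (4195 bp) and STRN4 (3176 bp). Some exon bases of the striatins are shared with other annotated genes. An unnamed gene covers 18.5% of the STRN transcript on the same strand. On the opposite strand, COCH shares 153 bp with STRN3, with 1 and 0 counts, and an unnamed lncRNA shares 160 bp with STRN4. The strand setting of the counting is not given in the sources used here.

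STK3 and STK4 are the MST kinases that SLMAP brings to the phosphatase. STK3 (ENSG00000104375.17, chromosome 8, 98371228 to 98942827, minus strand) had 1127 counts in si-NC against 590 in si-SRSF2, or 56.5 and 40.7 CPM. Its log2 ratio of -0.47 (-0.62 to -0.33), a level 71.9% of the control, was the lowest of the members and stood at the 6.19th percentile of all genes tested. STK4 (ENSG00000101109.13, chromosome 20, 44966494 to 45080021, plus strand) had 7595 and 4838 counts, or 381 and 333 CPM, a log2 ratio of -0.19 (-0.25 to -0.14). Both were called lower, STK3 by more. STK3 made up 12.9% of the counts of the pair in si-NC (12.2% to 13.6%) and 10.9% in si-SRSF2 (10.1% to 11.7%), with an odds ratio of 0.82 (0.74 to 0.91). Per kb of transcript the share of STK3 was 25.01% and 21.5%, and per kb of union exons 16.3% and 13.8%. Per kb, STK4 was thus the main MST transcript in both libraries.

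**Figure D2:**
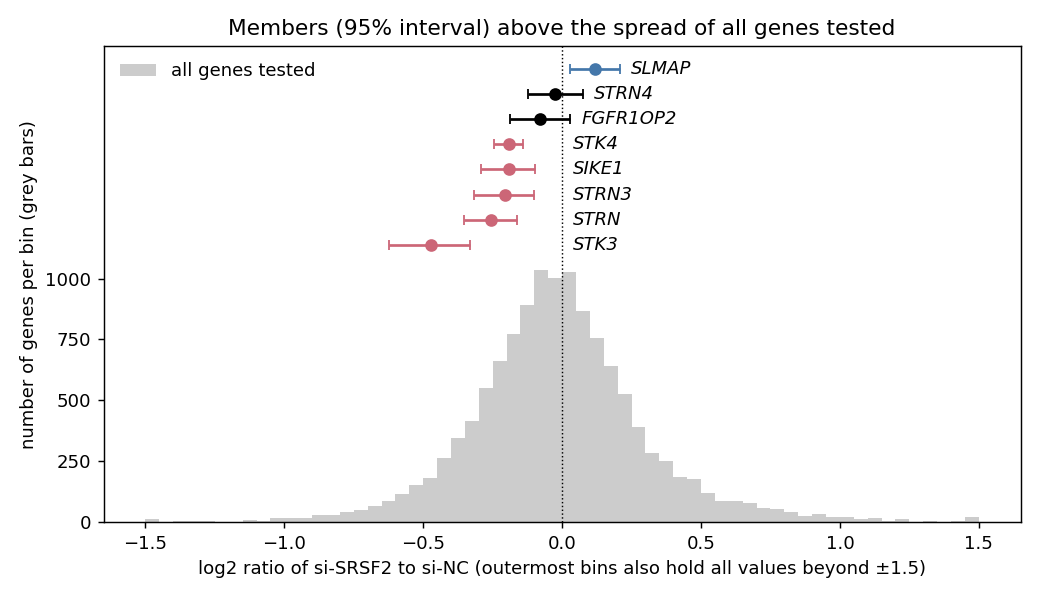
Log2 ratio, si-SRSF2 over si-NC (x axis), for the 8 members with counts (points with 95% Clopper-Pearson intervals, stacked by rank with no y value) above a histogram of the 12620 genes tested (grey bars, y axis in genes per bin). Blue marks a member called higher, red one called lower and black one not called; SLMAP at 0.12 is the only point above 0, and STK3 at -0.47 lies farthest to the left.

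Compared pair by pair within the libraries, 18 of the 28 pairs of members had a ratio that changed beyond its 95% interval. This is near the share over all pairs of the 4914 genes at or above the lowest member, of which 63.2% separated by a normal interval that also gave 18 of the 28, so the count is not a result about the members. STK3 separated from all 7 others, in each case downward, as it did from 90.9% of those genes, and SLMAP from all 7 others upward. In between, SIKE1, STRN, STRN3 and STK4 did not separate from one another. STRN4 and FGFR1OP2 did not separate from each other, with a log2 difference of 0.05 (-0.09 to 0.20), and STRN4 separated from each of those 4. FGFR1OP2 separated only from STRN among those 4. A pair that did not separate is not shown to have changed alike.

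MOB4 (ENSG00000115540.15, chromosome 2, 197515571 to 197553699, plus strand), which encodes the striatin-binding phocein, was listed at 0 counts in both libraries. The table also lists the read-through gene HSPE1-MOB4 at 0 in both. In GENCODE release 44 that gene shares 698 bp, 18.6% of the canonical MOB4 transcript, on the same strand. Of 89 listed genes that form the downstream part of an annotated read-through, 36 (40.4%) were at 0 in both libraries. This share was 25.3% for 91 upstream genes and 26.3% for all 19174 protein-coding genes matched. HSPE1, the upstream gene of this read-through, had 213 counts in si-NC against 184 in si-SRSF2. Whether the read-through annotation bears on the 0 of MOB4 was not tested. No level, ratio or absence of MOB4 is read from these counts. Its relatives were counted, and MOB1A, the co-activator of the LATS kinases, had 308 CPM in si-NC against 287 in si-SRSF2.

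Levels of different genes were ranked per length, as counts per kb of the canonical transcript, scaled to the same sum in each library (TPM), which are rough because gene counts mix transcripts. In si-NC, STK4 had 148 TPM, STRN4 77.7, FGFR1OP2 71.3, STRN3 53.4, SIKE1 50.5, STK3 49.4, SLMAP 44.8 and STRN 21.4. In si-SRSF2, SLMAP stood at rank 4 of the members with 47.9 TPM, after STK4 at 128, STRN4 at 75.3 and FGFR1OP2 at 66.5, whereas in si-NC it had rank 7. STRN3 followed at 45.6 TPM, SIKE1 at 43.5, STK3 at 35.0 and STRN at 17.7. The order in the middle rests on close levels and on the transcript length used. With the union of annotated exons as length, which is 17058 bp for SLMAP and 12604 bp for STK3, STK4 was again highest in si-NC (101 TPM), but STK3 was lowest (19.7) and SLMAP stood next to it (29.7). On that scale SLMAP had rank 7 of the 8 members with counts in si-NC and rank 6 in si-SRSF2, at 31.9 TPM just above STRN at 31.0, so the step from rank 7 to rank 4 depends on the length used.

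The other subunits of STRIPAK were taken from a list of 16 genes. Of these, 15 passed the filter, 4 were called higher and 8 lower, beside 21.0% and 26.7% of all genes tested, and none was 2-fold changed. The median log2 ratio was -0.11. TRAF3IP3, a relative of SLMAP known from immune cells, was at 0 in both libraries. Of the PP2A core, the scaffold PPP2R1A went from 270 to 291 CPM (log2 ratio 0.11, 0.05 to 0.16) and its paralogue PPP2R1B from 121 to 105 (-0.21, -0.31 to -0.12). PPP2R1A took 69.0% of scaffold counts in si-NC against 73.6% in si-SRSF2, an odds ratio of 1.25 (1.16 to 1.35). The catalytic subunits PPP2CA and PPP2CB were both called lower, by nearly the same ratio of -0.17 each. The share of PPP2CA was 63.0% and 62.9%, and its odds ratio of 0.997 had an interval of 0.92 to 1.09.

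The GCKIII kinases STK24, STK25 and STK26 sit in STRIPAK through PDCD10, a small adaptor also known as CCM3. They showed the widest change of make-up among the families compared, although a separation as such was common among gene pairs, at 63.2%. STK26 went from 2491 counts to 1286, or 125 to 88.6 CPM, a log2 ratio of -0.49 (-0.59 to -0.40), which was the lowest of the list. STK24 went from 2818 counts to 1512, or 141 to 104 CPM (-0.44, -0.53 to -0.35), while STK25 went from 2041 to 1679, or 102 to 116 CPM (0.18, 0.08 to 0.27). STK25 made up 27.8% of the counts of the 3 kinases in si-NC against 37.5% in si-SRSF2, with an odds ratio of 1.56 (1.44 to 1.69). Per kb, STK26 was the largest in both libraries, at 50.7% and 42.8%, and STK25 went from 29.9% to 40.2%. PDCD10 was itself lower, from 86.6 to 71.0 CPM (-0.28, -0.40 to -0.17).

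Of the remaining subunits, STRIP2 was lower (142 to 115 CPM, log2 ratio -0.31, -0.40 to -0.22). It encodes a striatin-interacting scaffold. MAP4K4, a kinase that binds STRIPAK and can phosphorylate LATS kinases, had the highest ratio of the list. It went from 3370 counts to 3314, or 169 to 228 CPM, a log2 ratio of 0.43 (0.36 to 0.50). Its relatives MINK1 and TNIK were not called, with ratios of 0.04 and 0.02.

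**Figure D3:**
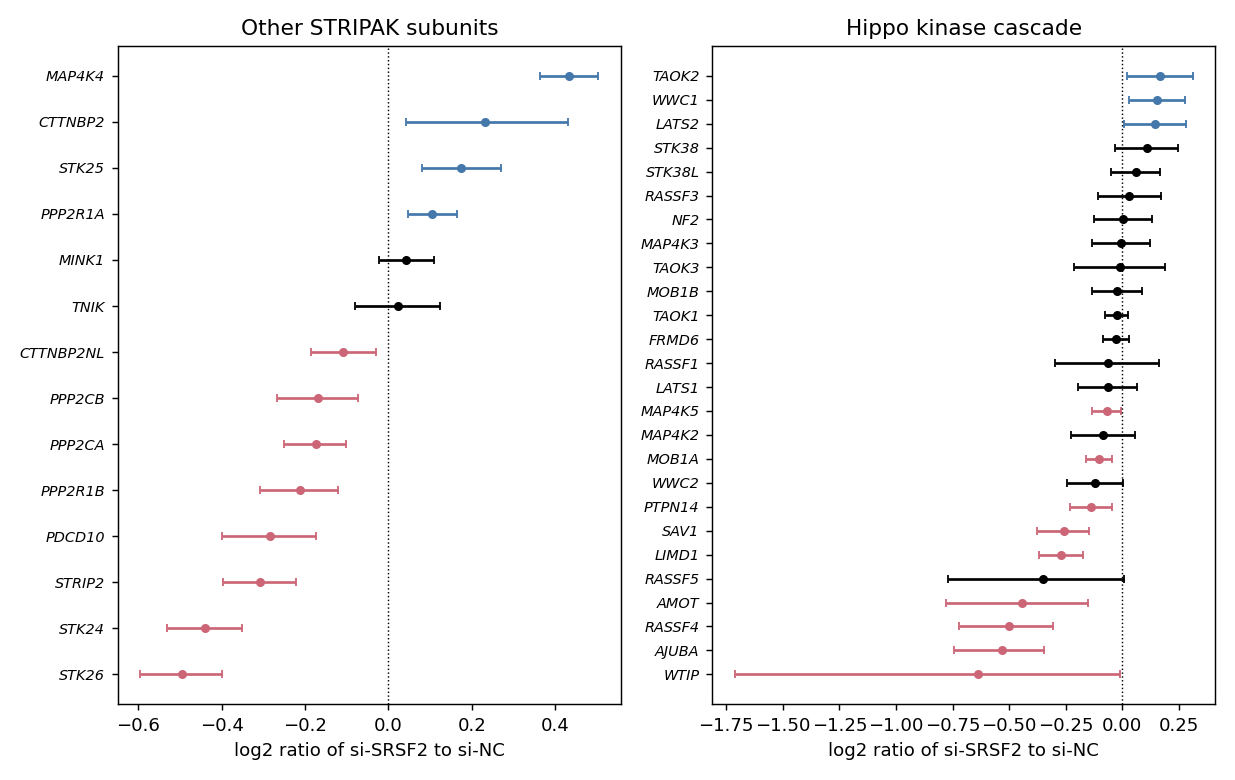
Log2 ratio, si-SRSF2 over si-NC (x axis), with 95% Clopper-Pearson intervals for 14 of the 15 other STRIPAK subunits (left; 1 is not shown) and the 26 Hippo cascade genes (right) that passed a mean of 1 CPM, each gene on its own line in order of ratio. Blue marks genes called higher, red those called lower and black those not called; STK26 and MAP4K4 stand at the ends of the left panel, and WTIP and TAOK2 at those of the right.

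Around STK3 and STK4, the list of the Hippo kinase cascade, with genes that act before, beside and after them, held 31 genes, of which 26 passed the filter. Of these, 3 were called higher and 9 lower, beside 21.0% and 26.7% of all genes tested, 14 were not called, none was 2-fold changed, and the median log2 ratio was -0.06. SAV1, the scaffold that the MST kinases need for full activity, went from 80.8 to 67.4 CPM (-0.26, -0.38 to -0.15). Of the LATS kinases, LATS1 was not called (60.7 and 58.0 CPM) and LATS2 was called higher by little (49.1 and 54.2 CPM, log2 ratio 0.14, 0.01 to 0.28). LATS1 made up 55.3% of LATS counts in si-NC against 51.7% in si-SRSF2 (odds ratio 0.86, 0.76 to 0.99). For their co-activators MOB1A and MOB1B the share of MOB1A was 79.1% and 78.2%, and its odds ratio of 0.95 had an interval of 0.87 to 1.03. AJUBA, a LIM protein that restrains LATS kinases, had the largest fall once genes averaging under 5 CPM were set aside, from 626 counts to 313 (31.4 to 21.6 CPM, log2 ratio -0.53, -0.74 to -0.34). The largest rise was that of TAOK2, a kinase that activates MST kinases, at 0.16 (0.02 to 0.31).

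**Figure D4:**
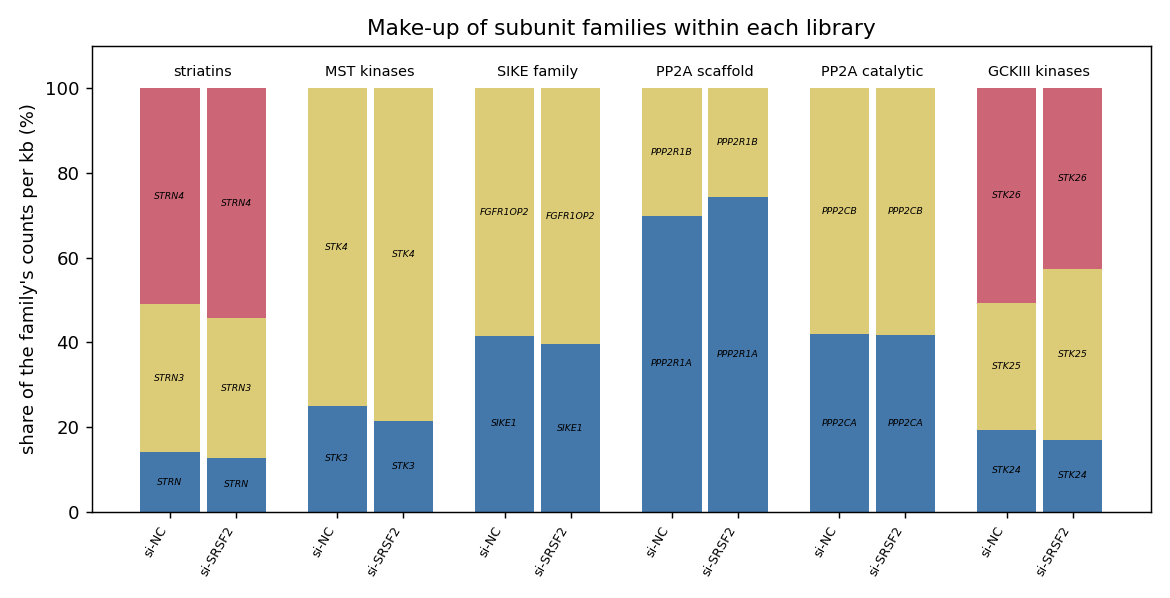
Share of each paralogue in its family's counts per kb of canonical transcript (y axis, percent) in the si-NC and si-SRSF2 libraries (x axis), for 6 families of STRIPAK and MST genes; coloured segments are the genes named on them and there are no error bars. STK25 goes from 29.9% to 40.2% of the GCKIII kinases, and PPP2CA stays at 41.9% and 41.8% of the catalytic subunits; with union exon lengths the largest gene changes in the striatins, the SIKE family and the PP2A catalytic subunits.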

How the data were processed

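Poly(A) libraries were made with a strand-specific kit and sequenced on a HiSeq X. The submitters' processing notes name HISAT2 2.0.4 and GRCh38. The authors aligned trimmed paired reads with Ensembl annotation, counted reads per gene with HTSeq and deposited raw counts without normalization. The design had 1 library per group. Counts were scaled in edgeR 4.0.16 (TMM, R 4.3.3), and intervals were computed in SciPy 1.17.1 from the counts and the scaled library sizes. The calculations were tested on simulated data. Of the 12620 genes tested, 93.4% were matched by symbol to GENCODE release 44, which gave lengths, exons and untranslated regions. Sequences were read from GENCODE 44, the GRCh38 genome and the study's oligo lists.

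The members and lists were chosen with earlier results of these data known. The rule for named genes was all 9 members, SRSF2, the members of the subunit families, and, in each list, genes changed 2-fold and the largest rise and fall at a mean of at least 5 CPM. Genes outside it (PDCD10, MINK1, TNIK, TRAF3IP3, SAV1, WTIP, CYR61, CTGF, TBK1, HSPE1, HSPE1-MOB4, COCH, ASAP1, MAP4K5, PPP2R5D and the markers) were named after their values were seen. The ratios of member pairs, splice site scores, seed sites and the shares over genes at or above the lowest member were added after the data were seen. Alternatives were other scalings, pseudocounts and filters, raw counts for shares, and union exon length (for shares, added after the data were seen). Exon and junction reads were not analysed here, and some genes of the lists and families are not reported here.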

Additional observations from a re-analysis of the deposited data

How the results depend on the processing

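The log2 ratio of SLMAP was between 0.12 and 0.14, that of STK3 between -0.48 and -0.45 and that of STRN4 between -0.02 and -0.0004 whether scaled by TMM, by DESeq2 1.42.0, by library totals or by upper quartiles, with 0.1 or 2 CPM added, or without mitochondrial and the 20 most abundant genes. The median of the members was between -0.19 and -0.17 under these and both filters (none, or a mean of 5 CPM). Upper-quartile factors changed the calls of 7 listed genes and of no member. With them 2 YAP/TAZ target genes were called lower in place of 4 (CTGF and ASAP1 lost the call), 7 Hippo genes in place of 9 (MAP4K5 and WTIP) and 3 PP2A regulatory genes in place of 4 (PPP2R5D), while 5 other STRIPAK subunits were called higher in place of 4 (MINK1 added) and 1 CCM gene in place of 0 (KRIT1). With a mean of at least 5 CPM, 8 Hippo genes were called lower. The other settings changed none of these counts. Raw counts in place of counts per kb moved 5 share differences beyond their counting interval, and union exon length moved all 8 member levels and 3 share differences (STK3, STK4 and STK25), reversing none. No paired analysis was possible because only 1 library stood in each group, which also left no replicate to leave out.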

Other observations

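Genes next to the complex were counted too. Of 20 YAP/TAZ target genes, which the Hippo cascade holds down, 14 passed the filter, with 6 called higher and 4 lower, beside 21.0% and 26.7% of all genes tested, and a median log2 ratio of 0.06. F3, the gene of tissue factor, was 2-fold changed, from 977 counts to 1568 (49.0 to 108 CPM, log2 ratio 1.13, 95% Clopper-Pearson interval 1.02 to 1.26). CYR61 (CCN1) went from 242 to 290 CPM (0.26, 0.20 to 0.32), but CTGF (CCN2) from 22.2 to 18.9 (-0.22, -0.45 to -0.01) and AMOTL2 from 48.7 to 36.2 (-0.42, -0.58 to -0.27), the largest fall. CTGF was not called with upper-quartile factors (-0.43 to 0.01).

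Of the 13 other PP2A regulatory genes, 10 passed the filter, with 4 called higher and 4 lower, and a median of -0.04. The shares of all genes tested, 21.0% higher and 26.7% lower, are the background for the counts that follow too. PPP2R2D had the largest rise (29.6 to 37.96 CPM, log2 ratio 0.35, 0.19 to 0.53) and PPP2R3A the largest fall (26.6 to 18.8 CPM, -0.49, -0.72 to -0.29). Of 6 genes of the antiviral pathway that SIKE1 restrains, 2 were called lower and 0 higher. They were TBK1 (86.7 to 75.2 CPM, log2 ratio -0.20) and DDX58, the RNA sensor RIG-I (11.5 to 8.34 CPM, -0.44, -0.79 to -0.14). IKBKE had the largest rise at a mean of at least 5 CPM, 9.33 to 10.6 CPM (0.18, -0.13 to 0.50), and was not called. Of the 3 CCM genes that share PDCD10 with STRIPAK, none was called, with ratios from -0.11 to 0.10. In the MOB family, 2 of 6 were called lower, MOB1A and MOB3B (17.7 to 14.3 CPM, log2 ratio -0.30, -0.56 to -0.06), and 0 higher.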
